A study of Homo sapiens with 4 samples.

Results

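Long noncoding RNAs (lncRNAs) known from the prostate or from nuclear bodies were followed through 4 RNA-seq libraries of LNCaP cells. The list held 7 genes, PCA3, PCGEM1, PART1, PCAT1, PVT1, MALAT1 and NEAT1, found by matching Entrez Gene identifiers to symbols. A row was found for 6 of them among the 19801 genes of the libraries, and PCGEM1 was not analysed here. A level of 1 RPKM or more in any library was reached by 5 of the 7, as by 14626 of all 19801 genes, and PCA3 stayed below it.

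LNCaP is a human prostate cancer line that responds to androgen, here grown in RPMI medium with serum. A plasmid, either empty or coding for AR1-651, a truncated receptor that lacks the ligand-binding domain, was transfected for 24 h, and the cells were then kept with or without the natural compound ailanthone (AIL) for 12 h. Each of the 4 conditions, called Empty vector, AR1-651, and either of these + AIL, gave 1 library, so there are no replicates to set a difference against and no p-values are reported. Expression from the plasmids was transient, and the share of cells that took up plasmid is not given in the sources used here. The directions below rest on the labels, which no value given here settles. The androgen-induced mRNA KLK3, which encodes PSA, had 286.6 RPKM in the Empty vector library, 302.6 in the Empty vector + AIL library, 1442 in the library labelled AR1-651 and 581.5 in the library labelled AR1-651 + AIL.

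RPKM is a read count per length of exon, scaled to the depth of the library. In short genes the lowest RPKM values recurred at the value of 1 read, which placed the depth at about 5180000 reads with Empty vector, 4910000 once AIL was added, 5630000 with AR1-651 and 5810000 with AR1-651 + AIL. Reads behind a gene, and the 95% intervals given below, follow from this estimate and cover counting error only. Where several transcripts share a row, the reads were taken for the shortest one, which gives the widest interval. The 7 luminal prostate markers reported had between 11.6 and 1442 RPKM, and the basal keratin KRT14 had at most 0.21 RPKM. The fibroblast and smooth muscle markers summed to 4.02 to 10.7 RPKM per library, the leukocyte markers to 9.75 to 19.7 (of which LYZ had most) and the endothelial markers to 0.17 to 0.72. In RNA from whole cultures, fewer cells that express a gene and less RNA per cell cannot be told apart.

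LncRNAs act as RNA and are not translated into the proteins that mRNAs encode. NEAT1 is the scaffold on which paraspeckles assemble, and MALAT1 is a very abundant RNA of nuclear speckles, the compartments that hold splicing factors. PCA3 is transcribed against the gene PRUNE2 and serves as a urine marker of prostate cancer, PART1 was described as an androgen-regulated transcript of the prostate, PCAT1 was found in prostate cancer transcriptomes, and PVT1 is the neighbour of the oncogene MYC.

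NEAT1 and MALAT1 share an unusual 3′ end, which is shown because it bears on how well a poly(A) selection catches them. In both, U-rich stretches fold with an A-rich tract into a triple helix that takes the place of a poly(A) tail. The NEAT1 sequence is bases 22678 to 22743 of the long transcript of 22743 nt, and the MALAT1 sequence is bases 8295 to 8355 of a transcript of 8708 nt, both from GENCODE release 29. They are written as DNA, and capitals mark the runs of at least 10 bases that the last 100 bases of NEAT1 share with the last 500 bases of MALAT1.
NEAT1: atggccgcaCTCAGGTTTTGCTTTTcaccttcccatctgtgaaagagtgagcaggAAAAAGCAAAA
MALAT1: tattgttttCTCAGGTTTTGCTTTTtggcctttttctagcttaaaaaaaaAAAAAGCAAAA
Between both runs lie 30 bases in NEAT1 and 25 in MALAT1. The U-rich run, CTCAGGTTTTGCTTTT, followed within 100 bases by the A-rich run, AAAAAGCAAAA, was found in 2 of 206694 transcripts in the release, which were these, and the runs had been read from them. The short NEAT1 transcript has an ordinary poly(A) tail, and the NEAT1 row pools it with the long one. The labels name both a kit that removes ribosomal RNA and an enrichment with oligo(dT), whereas the methods describe the removal of ribosomal RNA, so the share of tail-less NEAT1 and MALAT1 that entered the libraries is unknown and its part in their levels was not tested.

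NEAT1 and MALAT1 were the highest of the 6 lncRNAs, and both were highest in the Empty vector library. With Empty vector + AIL the counting interval of MALAT1, 10.9 to 13.0 RPKM, overlapped that of PVT1, 8.65 to 13.3. NEAT1 (Entrez Gene 283131) lies on chromosome 11 of GRCh38 from 65422774 to 65445540, and MALAT1 (Entrez Gene 378938) from 65497688 to 65506516 on the same strand, 52.1 kb further on. These positions come from GENCODE and are not those of the authors' build, hg19. NEAT1 had 85.5 RPKM in the Empty vector library, 34.5 when AIL was added, 32.4 in the library labelled AR1-651 and 31.8 in the library labelled AR1-651 + AIL. The Empty vector library stood alone, and the counting intervals of the other 3 overlapped. MALAT1 had 55.2 RPKM in the Empty vector library and 11.9 when AIL was added, against 18.8 with AR1-651 and 20.4 with AR1-651 + AIL. Again the Empty vector library was highest, and Empty vector + AIL was the lowest of the 4. Among the 2429 lncRNA genes with a row, NEAT1 ranked 16th with Empty vector and between 50th and 64th in the other libraries, while MALAT1 went from 35th to 180th with Empty vector + AIL.

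**Figure D1:**
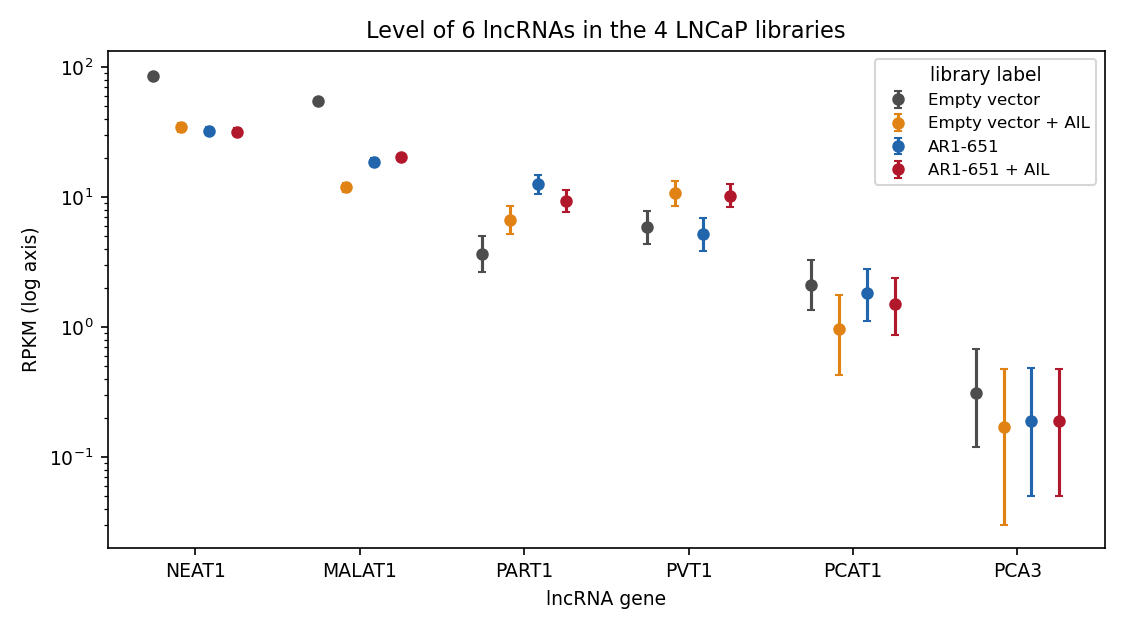
RPKM (log axis) of 6 lncRNAs in the 4 LNCaP libraries, 1 point per library, with bars for the 95% counting interval from the estimated reads. NEAT1 and MALAT1 are highest in the Empty vector library (85.5 and 55.2 RPKM), PART1 in the library labelled AR1-651 (12.7 RPKM), and PVT1 in the libraries with AIL (10.7 and 10.3 RPKM).

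The comparison of AR1-651 with Empty vector asks what the receptor without its ligand-binding domain does in the absence of AIL. Changes were taken as differences of log2(RPKM + 1), which understates the change of low genes, and a gene was counted at a difference of 2-fold or more. In the library labelled AR1-651, 2 of the 5 lncRNAs kept were at least 2-fold lower, MALAT1 and NEAT1, against 11.6% of all genes, and 1 was at least 2-fold higher, PART1, against 4.01%. With median-ratio scaling these shares of all genes were 5.61% and 7.37%, at equal summed RPKM 24.8% and 1.69%, and with ribosomal protein genes left out 17.2% and 2.61%, with the same 3 lncRNAs past 2-fold. MALAT1 was lower by a log2 difference of -1.51, with an RPKM ratio of 0.34 (counting interval 0.314 to 0.367). NEAT1 was lower by -1.37 on the same scale, with an RPKM ratio of 0.378 (interval 0.345 to 0.415). Genes of long transcripts as a whole were lower in this library. The median log2 difference was -0.72 over the 2203 genes with transcripts of over 5000 nt and 0.06 over the 4836 genes under 2000 nt. Length was taken as the mean over a gene's transcripts, 13134 nt for NEAT1, whose transcripts have 3524 and 22743 nt. Among genes of like length the median was -0.85 for MALAT1 and -0.91 for NEAT1. Relative to these medians MALAT1 was at -0.66 and NEAT1 at -0.46, and neither was then past 2-fold.

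PART1 (Entrez Gene 25859) was the only one of the lncRNAs kept that was at least 2-fold higher in the library labelled AR1-651. It had 3.68 RPKM in the Empty vector library and 6.72 when AIL was added, against 12.7 with AR1-651 and 9.39 with AR1-651 + AIL. The libraries labelled AR1-651 were thus the highest pair, and about 39, 67, 145 and 111 reads stood behind the values in the same order. With AR1-651 its log2 difference from Empty vector was 1.55, and its RPKM ratio was 3.45 (counting interval 2.41 to 5.05). Of all genes kept, 99.0% had a lower difference. The 5 androgen-induced mRNAs chosen for orientation, KLK2, KLK3, TMPRSS2, FKBP5 and SLC45A3, were all at least 2-fold higher in the same library, with a median log2 difference of 2.87. Relative to genes of like length PART1 was at 1.96. PVT1 and PCAT1 differed by -0.15 and -0.14 between AR1-651 and Empty vector, and the counting intervals of their RPKM ratios, 0.585 to 1.34 and 0.447 to 1.66, include equal levels.

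PART1 lies on chromosome 5 of GRCh38 from 60487713 to 60547657 on the plus strand, and 34408 bases of it overlap PDE4D, a phosphodiesterase gene of the opposite strand. The strand setting of the authors' counting is not given in the sources used here, and without it reads of both genes could not be told apart. PDE4D had 1.91 RPKM in the Empty vector library and 3.67 when AIL was added, against 0.69 with AR1-651 and 4.71 with AR1-651 + AIL, and was lowest where PART1 was highest. The sequence around a start of PART1 is printed because androgen response elements are looked for in such windows. It is the window chr5:60487682-60487981 of GRCh38.p14 on the plus strand, from RefSeq, with the 50 bases after the start in capitals.
PART1: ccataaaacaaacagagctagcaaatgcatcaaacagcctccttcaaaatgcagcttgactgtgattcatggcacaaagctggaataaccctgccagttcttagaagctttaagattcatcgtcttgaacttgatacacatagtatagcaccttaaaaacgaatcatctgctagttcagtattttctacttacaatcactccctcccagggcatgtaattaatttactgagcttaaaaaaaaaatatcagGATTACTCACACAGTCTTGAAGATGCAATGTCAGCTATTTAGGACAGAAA
On either strand it held neither AGAACA, the half-site of the androgen response element, nor TATAAA. Of 35116 promoter windows of the same length, 14.8% held AGAACA and 11.5% held TATAAA. The full palindrome, AGAACA and its reverse complement 3 bases apart, was in 1 of the 35116 windows and in none of the 6 windows of PART1, PCA3, PCGEM1 and MALAT1. AGAACA was found once in the PCGEM1 window and once in the second of the pair of MALAT1 windows, which also held TATAAA. No match says only that these letters are not in the window.

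The change with AIL in cells with empty vector compares 1 library with the compound and 1 without it, both without the construct. MALAT1 and NEAT1, 2 of the 5 lncRNAs kept, were at least 2-fold lower with AIL, against 9.03% of all genes, and 0 of 5 were at least 2-fold higher, against 9.53%. MALAT1 was lower by a log2 difference of -2.12. Its RPKM was 4.63-fold lower (counting interval 4.21 to 5.11), and 0.814% of all genes had a lower log2 difference. NEAT1 was lower by -1.28, a ratio of 0.404 (interval 0.366 to 0.444). This comparison and that of AR1-651 with Empty vector share the Empty vector library, where both RNAs were highest, so they are not independent. Relative to genes of like length MALAT1 was at -1.81 and NEAT1 at -0.86, so that NEAT1 was then not past 2-fold. This holds for the mean length of the NEAT1 transcripts, and the length of its short transcript was not tested.

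PVT1 and PART1 were higher with AIL in these cells, but below 2-fold. PVT1 (Entrez Gene 5820) had 5.88 RPKM in the Empty vector library and 10.7 when AIL was added, against 5.20 with AR1-651 and 10.3 with AR1-651 + AIL, from about 51, 88, 49 and 100 reads. The libraries with AIL were the highest pair, and the share of all genes with this order was not computed. Of all genes kept, 85.0% had a lower log2 difference with AIL than PVT1 with empty vector, and 81.4% with AR1-651. The log2 difference of PVT1 with AIL was 0.77 with empty vector, where the RPKM ratio was 1.82 (counting interval 1.28 to 2.63). With AR1-651 it was 0.87, and the ratio was 1.98 (interval 1.40 to 2.85). PART1 was at 0.72 with AIL in cells with empty vector, a ratio of 1.83 (interval 1.21 to 2.78). Its row sums isoforms of 2068 to 5616 nt, and which of them differed was not tested.

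The change with AIL in cells with AR1-651 asks whether the compound acts when the truncated receptor is present. None of the 5 lncRNAs kept was past 2-fold in either direction, against 14.9% of all genes higher and 5.74% lower (10.9% and 8.68% with median-ratio scaling, 18.8% and 3.94% at equal summed RPKM, where PVT1 was past 2-fold). PART1 was lower with AIL by a log2 difference of -0.40, and its RPKM ratio was 0.739 (counting interval 0.572 to 0.953). All 5 androgen-induced mRNAs were at least 2-fold lower in this comparison, with a median of -2.07. MALAT1 differed by 0.12, with an interval of the RPKM ratio of 0.996 to 1.19, and NEAT1 by -0.03, with an interval of 0.879 to 1.1. The sign for MALAT1 turned with median-ratio scaling (-0.09) and relative to genes of like length (-0.34). For both, the libraries labelled AR1-651 and AR1-651 + AIL could not be told apart at this depth.

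Between both libraries with AIL, AR1-651 + AIL and Empty vector + AIL, again none of the 5 lncRNAs was past 2-fold, against 1.46% of all genes higher and 3.53% lower. MALAT1 was higher with AR1-651 + AIL by a log2 difference of 0.73, a ratio of 1.71 (counting interval 1.54 to 1.91), and 95.8% of all genes had a lower difference. PART1 was higher by 0.43, with a ratio of 1.40 (interval 1.02 to 1.92). NEAT1 and PVT1 differed by -0.12 and -0.05, and their intervals, 0.822 to 1.03 and 0.714 to 1.29, include equal levels.

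**Figure D2:**
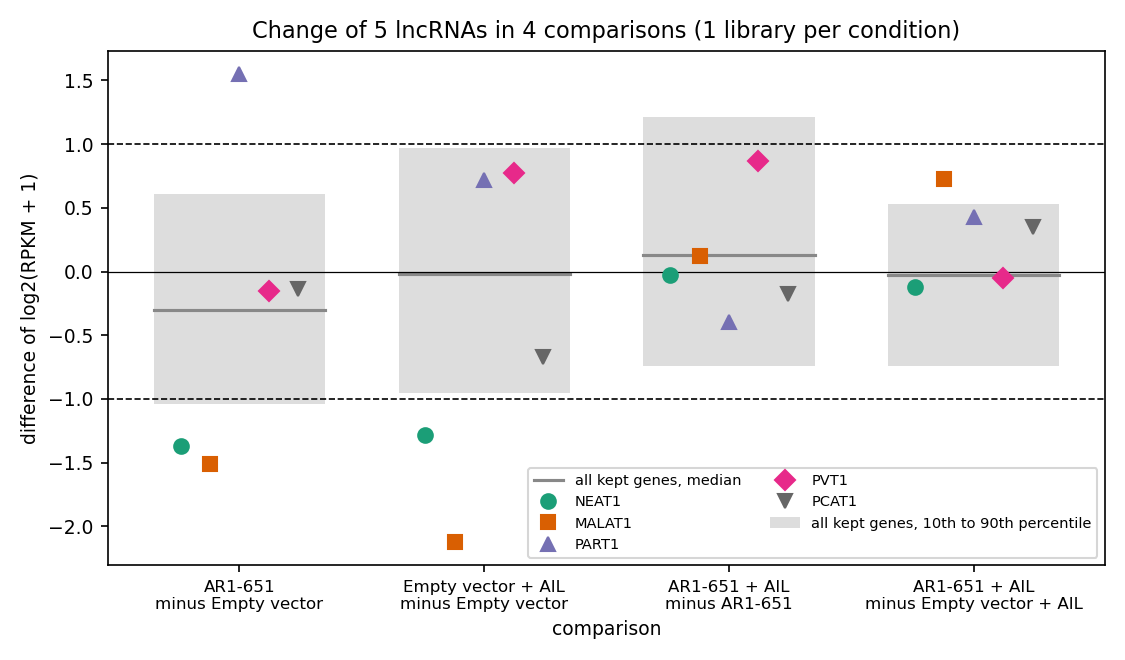
Differences of log2(RPKM + 1) of 5 lncRNAs in 4 comparisons of single libraries, with grey bars from the 10th to the 90th percentile of all 14626 genes kept, grey lines at their median and dashed lines at 2-fold. MALAT1 and NEAT1 lie below the lower dashed line in both comparisons with Empty vector, PART1 lies above the upper one with AR1-651 (1.55), and no lncRNA is past 2-fold in the comparisons of AR1-651 + AIL.

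The change with AIL differed between the backgrounds for 3 of the 5 lncRNAs by at least 2-fold. The log2 change with AIL in AR1-651 cells minus that in Empty vector cells was 2.24 for MALAT1 and 1.26 for NEAT1, and 11.3% of all genes had a difference of at least 2-fold in that direction. It was -1.12 for PART1, and 3.08% of all genes had a difference of at least 2-fold in that direction. It was 0.49 for PCAT1 and 0.10 for PVT1. MALAT1 and NEAT1 were lower with AIL where they started high and little different where they started low, and PART1 was on opposite sides of no change. With 1 library per condition these differences were not tested. Each contains the Empty vector library, where MALAT1 and NEAT1 were highest and PART1 was lowest. They are thus not independent of the comparisons with that library. Relative to genes of like length, by the mean length of its transcripts, the difference was 0.43 for NEAT1, under 2-fold.

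**Figure D3:**
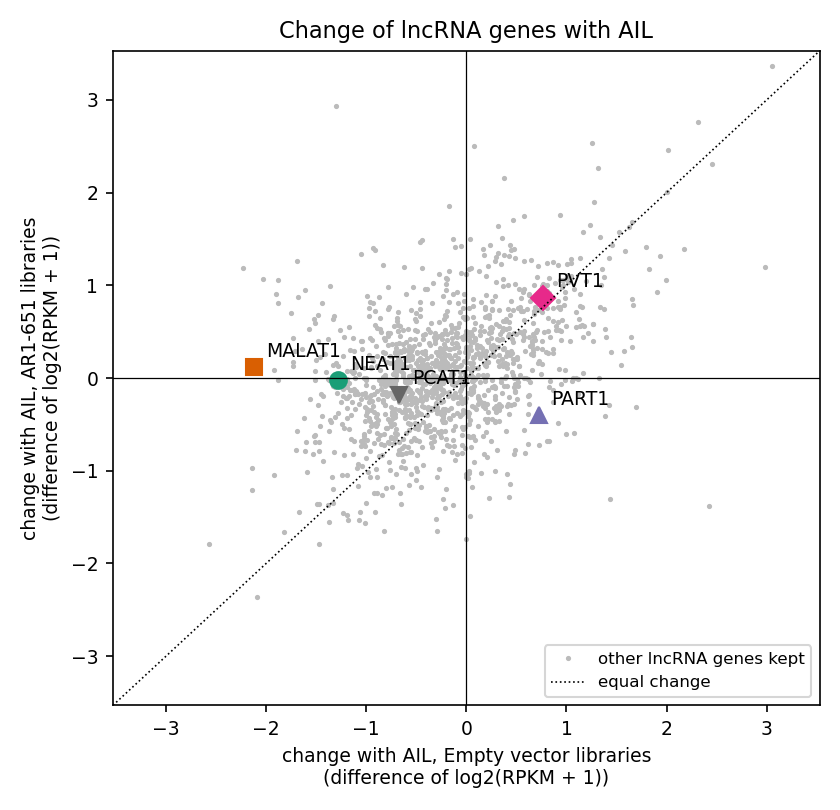
Change with AIL in the AR1-651 libraries against that in the Empty vector libraries, both as differences of log2(RPKM + 1), for the 1362 lncRNA genes kept, with 5 of them marked and a dotted line at equal change. PVT1 (0.77 and 0.87) lies near the dotted line, MALAT1 (-2.12 and 0.12) lies far above it and PART1 (0.72 and -0.40) below it.

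PCAT1 and PCA3 were low throughout. PCAT1 (Entrez Gene 100750225) had 2.13 RPKM in the Empty vector library and 0.97 when AIL was added, against 1.84 with AR1-651 and 1.51 with AR1-651 + AIL, from about 22, 9, 20 and 17 reads. Empty vector + AIL was the lowest library. Its log2 difference from Empty vector was -0.67, and the counting interval of the RPKM ratio, 0.185 to 1.03, includes equal levels. PCA3 (Entrez Gene 50652) had 0.31 RPKM in the Empty vector library, 0.17 when AIL was added, and 0.19 in each library labelled AR1-651, from about 6, 3, 4 and 4 reads. These values overlap in their counting intervals, of which the widest ranged from 0.12 to 0.68 RPKM, and a difference was not detectable at this depth. PCA3 lies on chromosome 9 of GRCh38 from 76691980 to 76863307, and its whole span lies inside PRUNE2 on the opposite strand. PRUNE2 had 27.8 RPKM in the Empty vector library and 8.05 when AIL was added, against 8.14 with AR1-651 and 6.34 with AR1-651 + AIL. PRUNE2 was thus far above PCA3 and highest in the Empty vector library, while PCA3 had too few reads to tell its highest library.

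Other neighbours of the lncRNAs were read in the same way. MYC, a transcription factor that drives growth, ends 53.1 kb before PVT1 starts on the same strand of chromosome 8. It had 63.0 RPKM in the Empty vector library and 9.83 when AIL was added, against 26.5 with AR1-651 and 7.86 with AR1-651 + AIL. PVT1 was higher and MYC lower with AIL in both backgrounds, and the RPKM ratio of PVT1 to MYC was 0.0933 and 0.196 without AIL and 1.09 and 1.31 with it. Of the 9 neighbour genes kept, 4 were at least 2-fold lower with AIL in cells with empty vector. These were MYC, PRUNE2, EHBP1L1 near MALAT1, and the zinc transporter gene SLC39A10, which was listed for PCGEM1. The 4 are 44.4% of the 9 against 9.03% of all genes, in a list of few genes. The distance of SLC39A10 from PCGEM1 was not measured. The median log2 difference of the 9 was -0.77, against -0.02 over all genes. FRMD8, the neighbour of NEAT1, differed by -0.57 in that comparison, next to -1.28 for NEAT1.

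Proteins of the nuclear bodies were listed to set beside NEAT1 and MALAT1. Of 17 paraspeckle protein genes, 3 were at least 2-fold higher with AIL in cells with empty vector, PSPC1, SFPQ and DAZAP1, and 0 were lower (17.6% and 0% of the list, against 9.53% and 9.03% of all genes), with a median log2 difference of 0.28 against -0.02 over all genes. SFPQ, which binds NEAT1 and is needed for paraspeckles, had 67.5 RPKM in the Empty vector library and 202 when AIL was added, against 35.3 with AR1-651 and 162 with AR1-651 + AIL. PSPC1, its partner, had 40.1, 130, 65.0 and 158 RPKM in the same order. Both were highest in the libraries with AIL, whereas NEAT1 was highest with Empty vector. NONO, the other partner of this family, had 181 RPKM with Empty vector and 126 with Empty vector + AIL, a log2 difference of -0.52. In cells with AR1-651, SFPQ, PSPC1 and HNRNPH3 were at least 2-fold higher with AIL, 17.6% of the list against 14.9% of all genes, and the median of the list was 0.58 against 0.13 over all genes. With AR1-651 against Empty vector, SMARCA4 and MATR3 were at least 2-fold lower, by -1.21 and -1.04, a share of 11.8% that is near the 11.6% of all genes, and 0 of the 17 were higher, with a median of -0.28 against -0.30 over all genes.

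Of 12 genes for speckle proteins and proteins that process or bind MALAT1, 0 were past 2-fold with AIL in cells with empty vector, where 9.53% of all genes were at least 2-fold higher and 9.03% lower. ELAC2, the RNase Z that cuts the tRNA-like piece released from MALAT1, was between 43.9 and 54.2 RPKM in the 4 libraries, and METTL16, which binds the triple helix, was between 8.85 and 13.2 RPKM. With AR1-651 against Empty vector 4 of the 12 were at least 2-fold lower, PNN, SRRM2, SRRM1 and SON. This was 33.3% of the list against 11.6% of all genes, and the median was -0.48 over the list against -0.30 over all genes. By transcript length, the share of genes was 26.9% over 5000 nt, 9.7% from 2000 to 5000 nt and 7.26% under 2000 nt. The lengths of the 12 were not set against these classes. SRRM2 and SON are large scaffold proteins of the speckles. PNN, also a speckle protein, was the 1 of the 12 at least 2-fold higher with AR1-651 + AIL than with AR1-651, with 66.1 and 16.5 RPKM. That is 8.33% of the list, below the 14.9% of all genes.

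**Figure D4:**
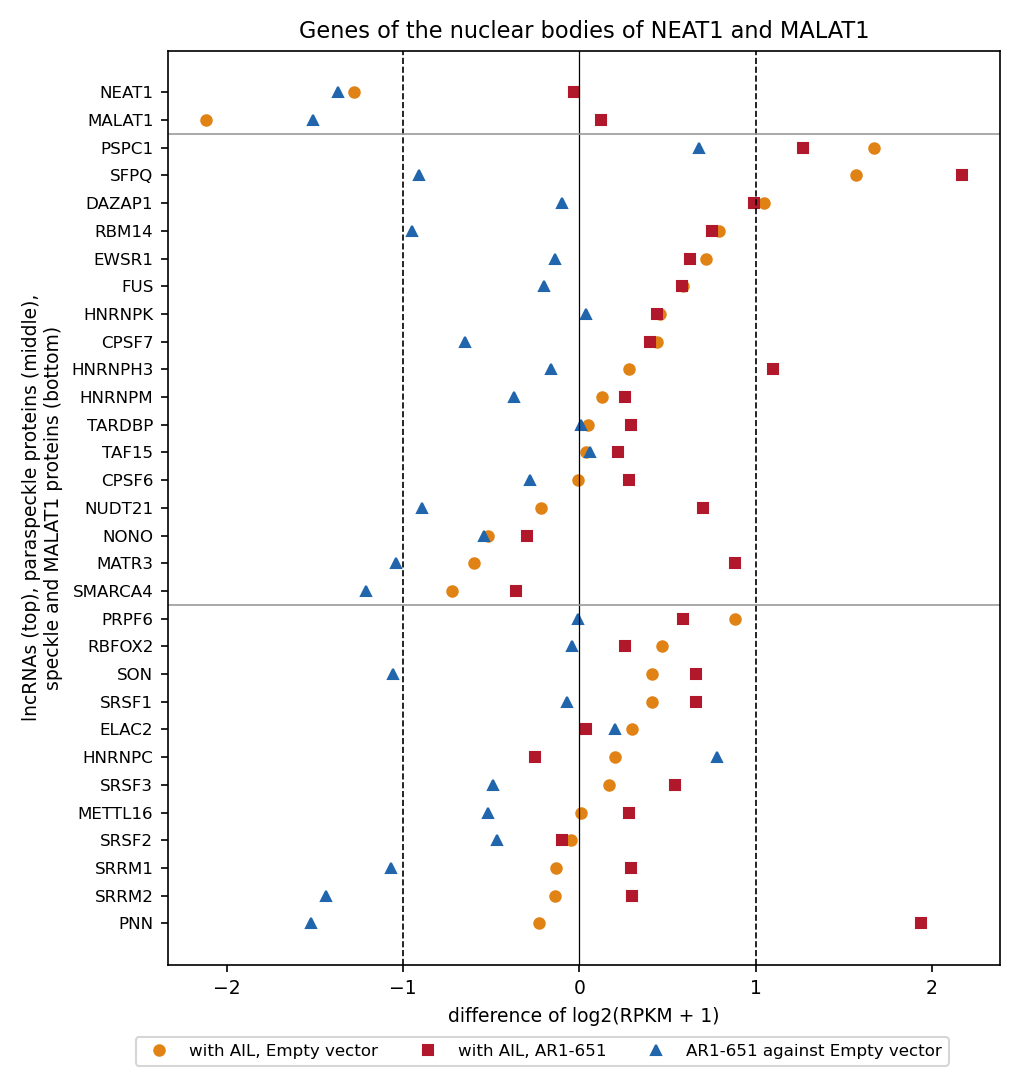
Differences of log2(RPKM + 1) of NEAT1 and MALAT1 (top), 17 paraspeckle protein genes (middle) and 12 genes for speckle and MALAT1 proteins (bottom), for AIL in Empty vector libraries (circles), AIL in AR1-651 libraries (squares) and AR1-651 against Empty vector (triangles), with dashed lines at 2-fold. PSPC1 and SFPQ lie above 2-fold with AIL in both backgrounds, and the circles of NEAT1 and MALAT1 lie below it.

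The lncRNAs differed from each other in pattern. Likeness was measured as the Euclidean distance between log2(RPKM + 1) values over the 4 libraries, each gene centred on its own mean. NEAT1 and MALAT1 were the nearest pair of the 5 at 0.70, and PART1 and MALAT1 were the farthest at 2.46. Among the 11870 other genes that reached 1 RPKM in every library, the nearest to MALAT1 were FAM111B (0.151), TSSK3 (0.238) and STEAP2 (0.281), a metalloreductase gene with 124 RPKM in the Empty vector library and between 31.4 and 51.1 in the other libraries. The nearest to NEAT1 were ARFGEF3 (0.103), GOLGA8A (0.114), which has near-identical copies that could share reads, and ADAMTS13 (0.131). PART1 was nearest to PIN4, a prolyl isomerase gene (0.0444), WASHC3 (0.0904) and DRAP1 (0.152). PVT1 was nearest to ZNF691 (0.0515), NAIF1 (0.0567) and the repressor gene ETV3 (0.0622), and PCAT1 to DTD2 (0.0494), ZNF587 (0.0534) and ARLN (0.064).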

How the data were processed

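RNA from 4 LNCaP conditions, 1 library each, was sequenced by the authors on the Illumina HiSeq2000. The authors deposited RPKM per Entrez gene, rounded to 2 decimals. The submitters' processing notes name BWA 0.7.10-r789 and hg19, and the counting tool and annotation release are not given in the sources used here. Symbols and gene classes came from RefSeq (19703 genes matched), and transcript lengths from GENCODE release 29 (95.8% of the genes kept).

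Differences of log2(RPKM + 1) were computed for genes that reached 1 RPKM in any library, and counted at 2-fold. The members and lists were chosen with earlier results of these data known. List genes are named where past 2-fold or next to a lncRNA, and each lncRNA kept has its 3 nearest genes. Of the luminal markers 2 genes, of the neighbours 1 gene, and a check of the construct's expression, which did not settle the labels, are not reported here.

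Depth came from genes of 60 to 250 nt, whose RPKM times length less 36 nt recurred at 1 value, taken as 1 read. Of their low values, 74.3 to 78.2% lay within 0.05 of whole reads. These include the genes whose shared value set 1 read, 101 of 158 with Empty vector, so the share was partly fixed in advance. Reads summed back over genes gave 5020000 to 6000000 per library, against 4910000 to 5810000 from the short genes. The sum was scaled by the same depth estimate, so it checks the lengths used and not the depth. Lengths may differ from the authors' annotation, so reads are approximate. Intervals are exact Poisson (RPKM) and exact conditional binomial (ratios) at 95%. Calculations were tested on simulated data.

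Alternatives were a pseudocount of 0.1, median-ratio scaling, equal summed RPKM, no filter, RPKM of at least 5, 1.5-fold, leaving out ribosomal protein genes, and removal of the length trend (running median of 501 genes). Python 3.11.15, NumPy 2.4.6, SciPy 1.17.1, pandas 2.3.3 and Matplotlib 3.10.9 were used.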

Additional observations from a re-analysis of the deposited data

Results flagged for a closer look

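MALAT1 and PART1 stood out because the change with AIL had opposite signs in cells with empty vector and with AR1-651. The log2 change of MALAT1 was -2.12 in the former and 0.12 in the latter, a difference of 2.24. That of PART1 was 0.72 and -0.40, a difference of -1.12. The difference was not tested, since each change compares 1 library with 1 library. For both genes it contains the Empty vector library, where MALAT1 was highest and PART1 was lowest. The change of 0.12 for MALAT1 became -0.34 relative to genes of like length and -0.09 with median-ratio scaling, so the opposite signs of MALAT1 depend on these settings. Those of PART1 were the same under all 8 alternatives. Of these, the pseudocount of 0.1, no filter, RPKM of at least 5 and the 1.5-fold threshold could not change them.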

How the results depend on the processing

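No paired analysis was possible because each condition has 1 library. Counts of lncRNAs past 2-fold came to within 1.5 times their main value in 66 of 72 recomputed counts, and in no alternative did a lncRNA past 2-fold change direction. Part of this agreement was fixed in advance. The filters leave the values of a gene unchanged, a pseudocount cannot turn the direction of a difference, and counts that stayed at 0 are included. With a threshold of 1.5-fold, 2 lncRNAs (PART1 and PVT1) were higher with AIL in cells with empty vector, against 20.9% of all genes. At that threshold 1 (PVT1) was higher with AR1-651 + AIL than with AR1-651, against 28.6%. Likewise 1 (MALAT1) was higher with AR1-651 + AIL than with Empty vector + AIL, against 7.73%. Each of these counts was 0 at 2-fold. With PCAT1, at -0.67, 3 in place of 2 were lower with AIL in cells with empty vector at 1.5-fold, against 22.1% of all genes. Relative to genes of like length, 0 were lower with AR1-651 than with Empty vector, against 3.88% of genes with a known length. In that setting 1 (MALAT1) was lower with Empty vector + AIL, against 8.02%. Both counts were 2 before. Between the compared libraries, the median of all genes for AR1-651 against Empty vector was -0.30 as deposited, -0.08 with median-ratio scaling and -0.59 at equal summed RPKM. For AR1-651 + AIL against AR1-651 it was 0.13, -0.03 and 0.27 in the same order. Over all settings the log2 difference of MALAT1 for AR1-651 against Empty vector ranged from -1.86 to -0.66, that of NEAT1 from -1.73 to -0.46 and that of PART1 from 1.23 to 1.96. With Empty vector + AIL against Empty vector MALAT1 ranged from -2.23 to -1.81. At equal summed RPKM 1 lncRNA (PVT1, at 1.03) was past 2-fold higher with AR1-651 + AIL against AR1-651, in place of 0, as were 18.8% of all genes. With a pseudocount of 0.1 PCAT1, at -1.06, was past 2-fold lower with Empty vector + AIL against Empty vector, as were 14.6% of all genes. The difference of the changes of PART1 with AIL was -0.88 at equal summed RPKM and -1.0 with ribosomal protein genes left out, under 2-fold in both, just so in the latter, and then 2 in place of 3 lncRNAs were past it. Depth limits PCA3 and PCAT1, with at most 6 and 22 reads.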

Other observations

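LncRNA genes as a class were set beside the members. Of the 1362 lncRNA genes kept, 12.2% were at least 2-fold lower and 5.65% at least 2-fold higher with AIL in cells with empty vector, against 7.45% and 9.6% of the protein-coding genes, and their median log2 difference was -0.25, against 0.01 over the 12346 protein-coding genes kept. With AR1-651 against Empty vector the medians were -0.29 and -0.30. With AR1-651 + AIL against AR1-651 they were 0.04 and 0.16.

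Of 30 other lncRNAs named for tumours, 28 had a row and 19 were kept. HOTAIRM1, transcribed beside the HOXA genes, was the 1 past 2-fold higher in the library labelled AR1-651, with 7.85 RPKM there and 3.11 RPKM in the Empty vector library. TUG1, KCNQ1OT1 and PCAT6 were at least 2-fold lower in that comparison, by -1.59, -1.45 and -1.04 on the log2 scale. These shares, 5.26% higher and 15.8% lower, stand beside 4.01% and 11.6% of all genes. KCNQ1OT1, a long nuclear RNA that silences neighbouring imprinted genes, was highest with Empty vector at 3.28 RPKM and had between 0.57 and 1.24 RPKM elsewhere. When AIL was added to AR1-651 cells, OIP5-AS1, PCAT18 and CYTOR were past 2-fold lower (15.8% of the list, against 5.74% of all genes), and CYTOR was listed at 0 there and at 1.11 RPKM without AIL. SCHLAP1, another lncRNA known from prostate cancer, lay between 9.14 and 13.4 RPKM in the 4 libraries. DANCR, the highest of the list, had 203 RPKM with Empty vector and 120 with Empty vector + AIL, and 193 with AR1-651 and 96.7 with AR1-651 + AIL.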
